A study of Homo sapiens with 16 samples.

Results

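The sites described here are the regions bound in a chromatin immunoprecipitation with an antibody to Myc, from the line U2OS-CHR, that overlapped no BMAL1 peak in any of 12 BMAL1 lists of the same series. They were chosen by position: a peak of the Myc list was taken when it shared not even 1 bp with a BMAL1 peak. Of the 2487 Myc peaks 1104 met that rule (44.4%, Wilson 95% interval 42.4 to 46.4%), out of 58586 peaks in all 13 lists. They are called Myc-only peaks, and the other 1383 are called Myc peaks with BMAL1.

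U2OS-CHR, named U2OS-CHRONO in the series design, is a line of U2OS human osteosarcoma cells, and the design names the target of the Myc precipitation as Myc-CHRONO. The groups used were the Myc library of U2OS-CHRONO, labelled with no time and no treatment, 6 BMAL1 libraries of U2OS-CHRONO and 6 of parental U2OS, 1 library each. The BMAL1 cells of each line were given 200 nM dexamethasone, a glucocorticoid used to synchronise cellular clocks, and were taken at time labels 0, 4, 8, 12, 16 and 20 h. The first of these was 4 h ahead of the trough of a BMAL1 promoter luciferase rhythm. The labels do not say how CHRONO is expressed in the line or whether it is a single clone. With 1 Myc library there was no replicate, so nothing below is a test between conditions. The intervals cover counting error over peaks or promoters of that library alone. The samples hold no Myc library of parental U2OS, and signal from tagged CHRONO and from the endogenous MYC protein cannot be told apart. Treatment and antibody also cannot be told apart where the Myc and BMAL1 lists are compared, since the Myc library carries no dexamethasone label.

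BMAL1 and CLOCK form the activator of the circadian clock and bind DNA as a pair at the E-box, whose core is CACGTG. CHRONO, encoded by CIART, is known as a repressor that acts on the BMAL1 and CLOCK pair. MYC, with MAX, binds the same E-box. ETS proteins, such as GABPA and ELK1, bind a core spelled CCGGAAG here and are known for their sites in promoters of housekeeping genes.

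The sequences below show what the promoters under Myc-only peaks look like beside one under a Myc peak with BMAL1. Each is the promoter window of 300 bases from RefSeq (GRCh38.p14), from 250 bases before the gene's start, read 5′ to 3′ along the gene. CHCHD2 (chr7:56106427-56106726, minus strand) and SCNM1 (chr1:151165894-151166193, plus strand) lie under the Myc-only peaks of highest score that have a promoter window in the table. Neither holds the canonical E-box, and capitals mark the ETS motif, which reads CTTCCGG on the other strand. The promoters next in score without the E-box, those of ISG20L2 and ZNF569, held no ETS motif and are not printed. Of all promoter windows under Myc-only peaks, 30.0% held the ETS motif and 5.54% the canonical E-box.
CHCHD2: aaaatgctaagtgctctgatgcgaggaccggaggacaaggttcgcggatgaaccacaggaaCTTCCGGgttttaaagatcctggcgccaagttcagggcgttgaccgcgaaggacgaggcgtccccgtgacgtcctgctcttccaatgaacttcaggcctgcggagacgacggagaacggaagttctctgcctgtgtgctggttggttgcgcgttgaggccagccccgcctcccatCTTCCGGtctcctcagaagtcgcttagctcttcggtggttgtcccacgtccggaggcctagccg
SCNM1: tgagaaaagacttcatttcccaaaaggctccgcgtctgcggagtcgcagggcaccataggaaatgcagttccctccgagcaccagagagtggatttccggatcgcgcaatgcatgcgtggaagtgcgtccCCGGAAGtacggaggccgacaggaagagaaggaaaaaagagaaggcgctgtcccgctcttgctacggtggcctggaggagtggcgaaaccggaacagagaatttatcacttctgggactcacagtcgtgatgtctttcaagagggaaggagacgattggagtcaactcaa
GEMIN7 (chr19:45078945-45079244, plus strand) and WASHC2C (chr10:45727016-45727315, plus strand) lie under the highest Myc-only peaks whose promoter does hold the canonical E-box, which is in capitals.
GEMIN7: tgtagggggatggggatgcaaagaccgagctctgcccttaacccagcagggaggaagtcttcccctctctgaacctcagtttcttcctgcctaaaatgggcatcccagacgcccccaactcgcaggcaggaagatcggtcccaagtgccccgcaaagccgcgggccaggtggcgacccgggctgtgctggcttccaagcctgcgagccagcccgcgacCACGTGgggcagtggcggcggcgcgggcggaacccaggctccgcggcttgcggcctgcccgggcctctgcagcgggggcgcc
WASHC2C: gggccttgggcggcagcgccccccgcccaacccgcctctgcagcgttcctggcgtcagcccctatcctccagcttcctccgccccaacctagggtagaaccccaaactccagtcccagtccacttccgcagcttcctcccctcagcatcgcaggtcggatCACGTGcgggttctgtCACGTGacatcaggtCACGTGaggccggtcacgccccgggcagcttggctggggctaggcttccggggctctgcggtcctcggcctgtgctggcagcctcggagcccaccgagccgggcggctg
TEF (chr22:41381692-41381991, plus strand) is the promoter with an E-box under the highest such Myc peak with BMAL1, again with the E-box in capitals.
TEF: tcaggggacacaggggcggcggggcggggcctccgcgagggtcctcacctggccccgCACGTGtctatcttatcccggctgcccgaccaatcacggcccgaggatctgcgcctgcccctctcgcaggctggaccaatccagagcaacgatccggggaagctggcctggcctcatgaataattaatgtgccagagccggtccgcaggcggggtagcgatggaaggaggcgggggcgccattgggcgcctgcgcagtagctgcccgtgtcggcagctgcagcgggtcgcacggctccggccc
In CHCHD2, a mitochondrial and nuclear protein, the ETS motif stood at 2 places, with first bases at -189 and -14 from the start. In SCNM1, a splicing protein, it stood once, at -120. In GEMIN7, of the SMN complex that builds spliceosomal particles, the E-box stood at -32. WASHC2C, of the WASH complex of endosomes, had 3 E-boxes, at -90, -74 and -59. The WASHC2C window also holds the ETS motif, left in small letters there. In TEF, a clock output activator, the E-box stood at -193.

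The Myc-only peaks were mostly weak within their list. The score is the authors' own value per peak, and no list went below 50. Myc-only peaks had a median score of 54.3, with quartiles of 52.1 and 61.3 and a highest value of 154. Myc peaks with BMAL1 had a median of 64.0, quartiles of 54.4 and 85.1 and a highest value of 700.05. Scores under 55, just above the floor, were held by 584 Myc-only peaks (52.9%) and by 367 Myc peaks with BMAL1 (26.5%). One score, 52.16, was shared by 125 Myc-only peaks. The Myc-only peaks were also narrower, with a median width of 144.5 bp and quartiles of 130 and 164 bp, against a median of 184 bp and quartiles of 147 and 237 bp for the peaks with BMAL1. The share of Myc peaks that were Myc-only fell with score. It was 59.0% at scores of 50 to 60 (789 of 1337 peaks), 36.7% at 60 to 80 (254 of 692), 19.8% at 80 to 100 (45 of 227) and 6.93% at 100 or more (16 of 231, Wilson 95% interval 4.31 to 10.95%). All 67 Myc peaks above the highest Myc-only peak had a BMAL1 peak, which follows from the choice of sites.

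**Figure D1:**
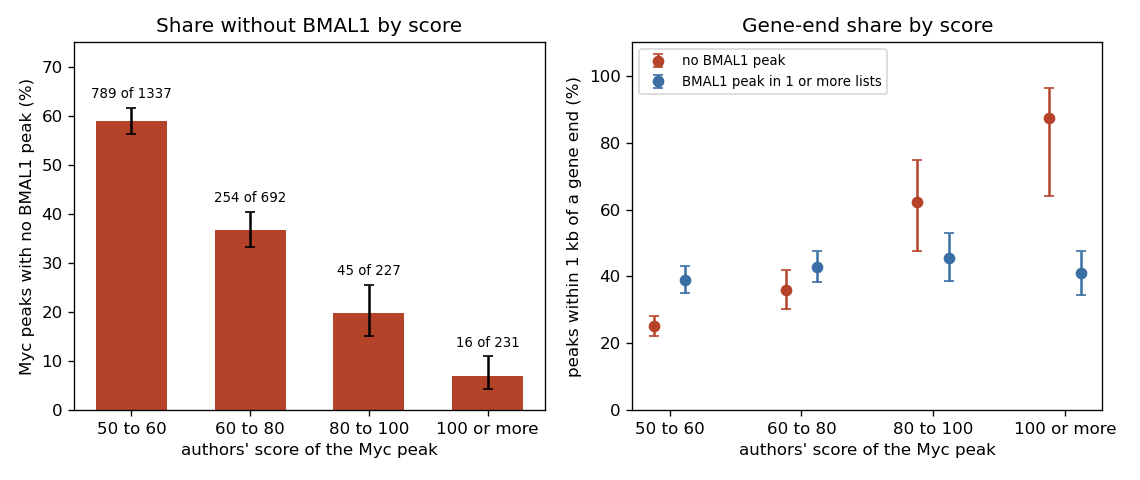
Left, the share of Myc peaks with no BMAL1 peak (%) in 4 ranges of the authors' score, with Wilson 95% intervals and the counts above each bar; it is 59.0% in the lowest range and 6.93% in the highest. Right, the share of peaks within 1 kb of a gene end (%) for Myc-only peaks and Myc peaks with BMAL1 in the same ranges; the Myc-only share climbs to 87.5% while the other stays between 38.9 and 45.6%.

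The strongest Myc-only peaks sat at gene ends. Among the 16 whose score reached 100, 14 lay within 1 kb of an end of a protein-coding gene. The highest, with a score of 154, spanned 56106415 to 56106799 on chromosome 7 (hg38) at the start of CHCHD2. The second, at 144, lay at RPL37, of the large ribosomal subunit, from 40835145 to 40835439 on chromosome 5. SCNM1 shared a peak of score 138.0 with its neighbour LYSMD1. The peak between ISG20L2, an rRNA processing nuclease, and METTL25B scored 138. These 4 peaks were 234 to 385 bp wide and lay over 10 kb from any BMAL1 peak.

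Next in order came a peak of score 135 at the zinc finger genes ZNF569 and ZNF570, and one of 132 shared by TRIAP1, a mitochondrial lipid transfer partner, and GATC, of the mitochondrial glutamyl-tRNA amidotransferase. The start shared by LRRC40 and SRSF11, a splicing factor, had a score of 128. MTR, methionine synthase, had 123 and MTERF4, a factor of mitochondrial ribosome assembly, had 120. INTS5, of the Integrator complex, had 112 and MTF2, of Polycomb complex PRC2, had 109. RPS12, of the small ribosomal subunit, had 107, MEF2A, a muscle and neuronal transcription factor, had 105.2 and YTHDF2, a reader of methylated mRNA, had 102. The 2 others away from gene ends lay inside USP42, a deubiquitinase gene, with a score of 107, and 72861 bp from HEPHL1, again with 107. Of these 16 peaks 13 lay over 10 kb from the nearest BMAL1 peak of any list, and the gaps ran from 744 bp at RPS12 to 294330 bp at ZNF570.

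Placed against protein-coding genes, the Myc-only peaks as a whole were spread widely. Within 1 kb of a gene end lay 331 of 1104 (30.0%, Wilson 95% interval 27.4 to 32.8%), against 572 of the 1383 peaks with BMAL1 (41.4%, 38.8 to 44.0%). The difference was -11.4 percentage points (Newcombe 95% interval -15.1 to -7.60). Inside a gene but over 1 kb from its ends lay 328 (29.7%), against 382 (27.6%). Between genes, within 50 kb of one, lay 185 (16.8%), against 295 (21.3%). Over 50 kb from any gene lay 246 (22.3%, 19.9 to 24.8%), against 134 (9.69%, 8.24 to 11.4%). These 246 include the very narrow peaks far from genes described below, and whether those map uniquely was not tested. The last 14 Myc-only peaks were on sequences outside the assembled chromosomes, and no Myc peak with BMAL1 was.

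The overall difference hid opposite differences at low and high scores. At scores of 50 to 60 the gene-end share was 25.1% of Myc-only peaks (198 of 789), against 38.9% of peaks with BMAL1 (213 of 548), a difference of -13.8 points (Newcombe 95% interval -18.8 to -8.70). At 60 to 80 it was 35.8% against 42.9%, a difference of -7.10 points, with an interval that reaches 0.49. At 80 to 100 it was 62.2% (28 of 45) against 45.6% (83 of 182), a difference of 16.6 points (0.32 to 31.1). At 100 or more it was 87.5% (14 of 16, Wilson 64.0 to 96.5%) against 40.9% (88 of 215, 34.6 to 47.6%), a difference of 46.6 points (22.1 to 57.6). The gene-end share of Myc-only peaks was thus higher in each range of score than in the one before, and that of peaks with BMAL1 stayed between 38.9 and 45.6%. These differences rest on few strong Myc-only peaks.

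**Figure D2:**
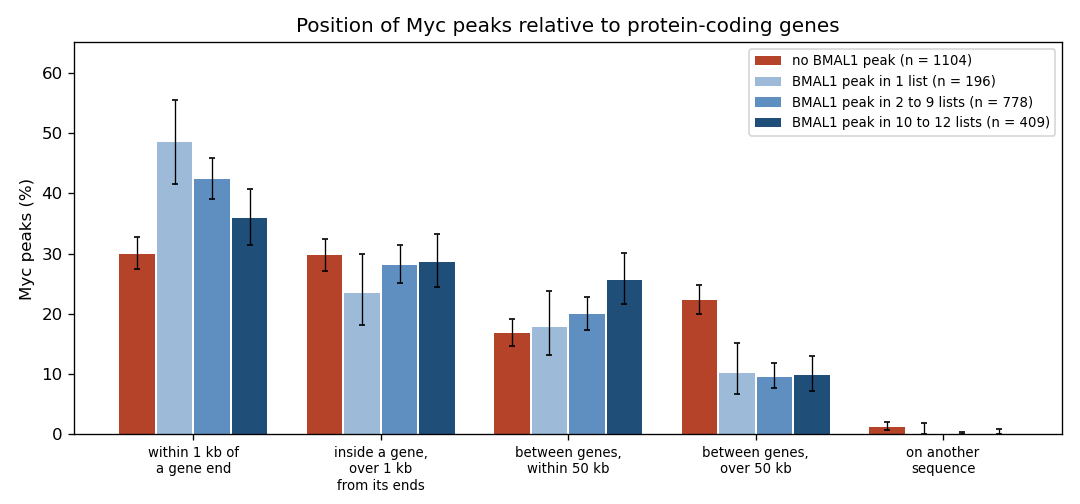
Share of Myc peaks (%) in 5 positions relative to protein-coding genes, for Myc-only peaks and for Myc peaks with a BMAL1 peak in 1 list, 2 to 9 lists or 10 to 12 lists; bars carry Wilson 95% intervals. The Myc-only peaks have the lowest gene-end share (30.0%) and the highest share over 50 kb from a gene (22.3%), and the gene-end share is highest with 1 list (48.5%).

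Among the peaks with BMAL1 the gene-end share was not highest where BMAL1 was called most often. It was 48.5% (Wilson 95% interval 41.6 to 55.4%) for the 196 peaks with BMAL1 in 1 list, and 35.9% (31.4 to 40.7%) for the 409 with BMAL1 in 10 to 12 lists. Myc-only peaks had a median score of 54.3, and those with BMAL1 in 1 list had 60.2.

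At gene starts the Myc-only peaks were close to the start itself. Within 1 kb of a start of a protein-coding gene in the RefSeq promoter table, which gives the strand and holds no chromosome 8 entry, lay 295 Myc-only peaks and 513 peaks with BMAL1. The median offset of the peak centre was -70 bp for Myc-only peaks, with quartiles of -166 and -16.5 bp, and -95 bp for peaks with BMAL1, with quartiles of -228 and -32 bp. The centre lay within 100 bp of the start in 163 of 295 Myc-only peaks (55.3%, Wilson 95% interval 49.5 to 60.8%) and in 230 of 513 peaks with BMAL1 (44.8%, 40.6 to 49.2%). Of the 331 Myc-only peaks at a gene end, 266 were at such a start.

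The canonical E-box was in a smaller share of promoters under Myc-only peaks than under Myc peaks with BMAL1, and the shares with the ETS motif lay close together. Promoter windows of protein-coding genes under a peak were searched on both strands, 307 under Myc-only peaks and 491 under peaks with BMAL1. Among all 22077 windows, 8.32% held the canonical E-box, CACGTG. It was in 17 windows under Myc-only peaks (5.54%, Wilson 95% interval 3.49 to 8.69%), against 182 under peaks with BMAL1 (37.1%, 32.9 to 41.4%). The difference was -31.5 percentage points (Newcombe 95% interval -36.3 to -26.3). The choice of sites used BMAL1 peaks and BMAL1 is known to bind this motif, so this is a description of the sites chosen. Under peaks with BMAL1 in 10 or more lists it was in 69 of 112 windows (61.6%).

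The ETS motif, CCGGAAG, was in 12.8% of all windows. It was in 92 windows under Myc-only peaks (30.0%, Wilson 95% interval 25.1 to 35.3%) and in 145 under peaks with BMAL1 (29.5%, 25.7 to 33.7%). The difference was 0.44 points, with a Newcombe 95% interval of -5.97 to 7.03. Base composition was measured beside the motifs. GC content averaged 63.8% ± 8.05 (SD over 307 windows) under Myc-only peaks, 64.8% ± 7.51 (491 windows) under peaks with BMAL1 and 60.9% ± 12.2 over all windows. Among the 12829 windows with at least 60% GC the ETS motif was in 16.0% and the canonical E-box in 10.2%.

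The E-box share of Myc-only peaks was below that of peaks with BMAL1 in each range of score. With 1 window for each peak, the canonical E-box was in 10 of 141 Myc-only peaks at scores of 50 to 60 (7.09%), 3 of 73 at 60 to 80, 1 of 23 at 80 to 100 and 0 of 12 at 100 or more (Wilson 95% interval up to 24.2%). In peaks with BMAL1 it was in 58 of 147 (39.5%), 35 of 132 (26.5%), 30 of 57 (52.6%) and 30 of 67 (44.8%) in the same ranges. The ETS motif was in 29.1, 31.5, 34.8 and 33.3% of Myc-only peaks in these ranges, against 23.8, 26.5, 38.6 and 28.4% of peaks with BMAL1. Counted only where the motif lay inside the peak itself, the E-box was in 9 of 249 Myc-only peaks (3.61%) and 127 of 403 peaks with BMAL1 (31.5%), and the ETS motif in 59 (23.7%) and 82 (20.3%).

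Other E-box forms and the core of the clock's nuclear receptors were searched in the same windows. The E-box variant CACGCG was in 14.2% of all windows, in 57 under Myc-only peaks (18.6%) and in 150 under peaks with BMAL1 (30.5%). The E-prime box, CACGTT, was in 5.43% of all windows, 20 under Myc-only peaks (6.51%) and 58 under peaks with BMAL1 (11.8%). The variant CATGTG was in 8.96% of all, 21 (6.84%) and 34 (6.92%). AGGTCA, the core read by nuclear receptors such as the ROR and REV-ERB proteins, was in 11.9% of all windows, 19 under Myc-only peaks (6.19%) and 63 under peaks with BMAL1 (12.8%). In windows with at least 60% GC, CACGCG was in 21.1%, CACGTT in 4.62%, CATGTG in 5.12% and AGGTCA in 8.86%.

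Motifs of general promoters were searched too. TGACGTC, the CRE core bound by CREB, was in 4.06% of all windows, 25 under Myc-only peaks (8.14%) and 37 under peaks with BMAL1 (7.54%). GCATGCG, of NRF1, was in 4.6% of all, 22 (7.17%) and 39 (7.94%), and AAGATGG, of YY1, in 6.05% of all, 29 (9.45%) and 35 (7.13%). The GC box, GGGCGG, was in 56.3% of all windows, 200 under Myc-only peaks (65.1%) and 358 under peaks with BMAL1 (72.9%), and CCAAT in 34.7% of all, 90 (29.3%) and 185 (37.7%). The differences were -7.77 points for the GC box (Newcombe 95% interval -14.4 to -1.21) and -8.36 points for CCAAT (-14.9 to -1.60). TATAAA, the TATA box, was in 9.5% of all, 10 (3.26%) and 18 (3.67%). TGANTCA, of AP-1, was in 6.16% of all, 16 (5.21%) and 29 (5.91%), and AGAACA, a core read by the glucocorticoid receptor, in 11.8% of all, 29 (9.45%) and 50 (10.2%). In windows with at least 60% GC, the CRE core was in 4.97%, GCATGCG in 5.94% and AAGATGG in 5.80%. The GC box was in 80.2% of those windows, CCAAT in 30.1%, TATAAA in 3.10%, TGANTCA in 3.37% and AGAACA in 5.97%.

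**Figure D3:**
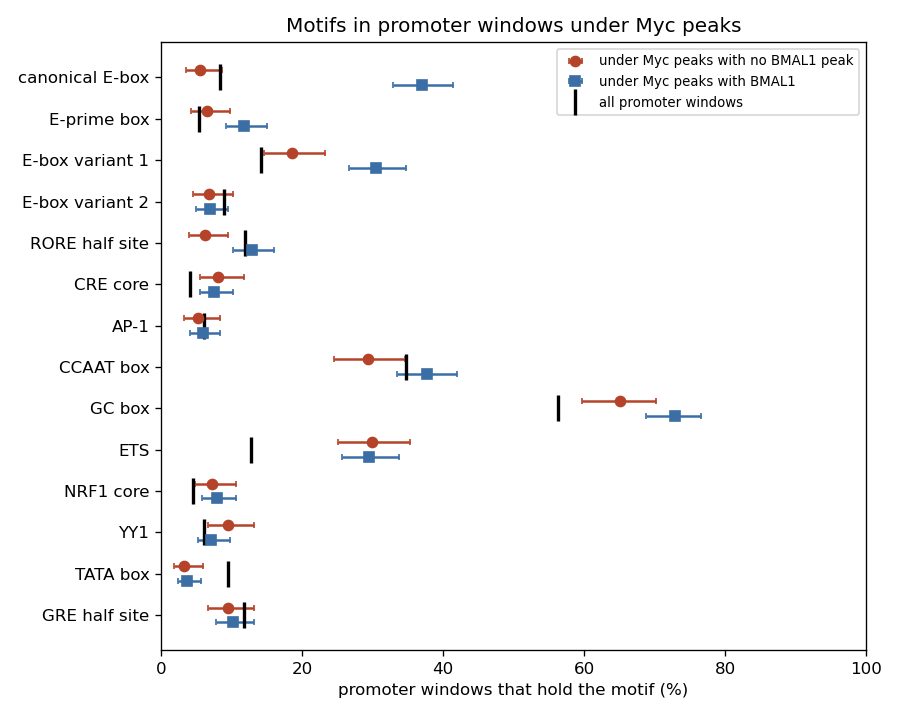
Share of promoter windows (%) that hold each of 14 motifs, for windows under Myc-only peaks, windows under Myc peaks with BMAL1 (points with Wilson 95% intervals) and all windows (black ticks). E-box variant 1 is CACGCG and variant 2 is CATGTG; the classes lie apart at the canonical E-box (5.54% and 37.1%) and together at the ETS motif (30.0% and 29.5%).

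The E-box share was lowest with no BMAL1 list at the Myc peak and mostly higher with more lists. It was 5.54% with 0 lists, 14.4% (15 of 104 windows) with 1, 18.5% with 2, 15.8% with 3 and 33.3% with 4, and between 33.3 and 76.9% with 5 to 12 lists. The number of lists is what chose the Myc-only peaks, so this order is a description. The ETS share had no such order and lay between 15.2 and 43.3% over all numbers of lists.

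**Figure D4:**
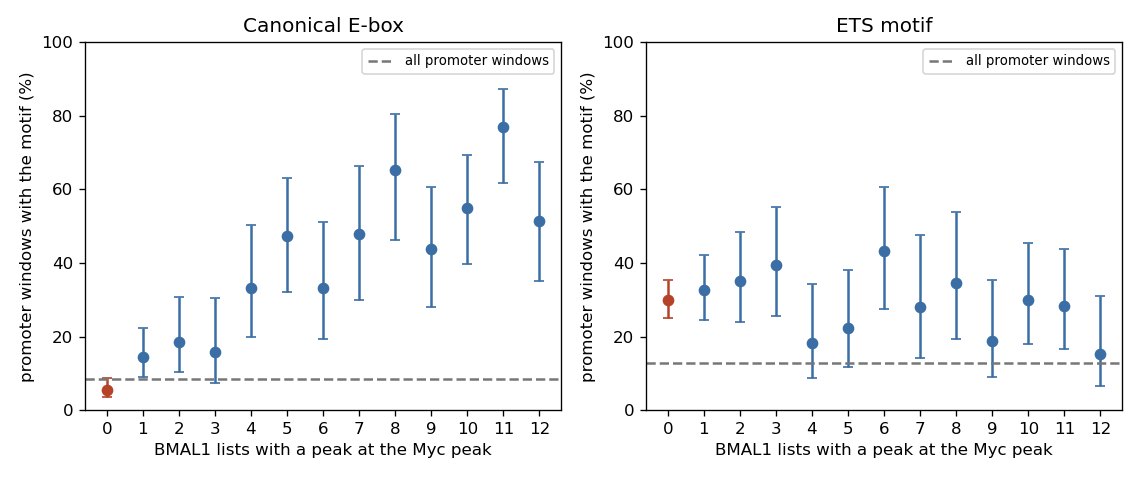
Share of promoter windows (%) with the canonical E-box (left) and the ETS motif (right) by the number of BMAL1 lists, 0 to 12, that had a peak at the Myc peak; 0 lists are the Myc-only peaks, bars are Wilson 95% intervals and the dashed line is the share of all windows. The E-box share is 5.54% at 0 lists, 76.9% at 11 and 51.5% at 12, and the ETS share lies between 15.2 and 43.3% with no order.

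Over all 20037 protein-coding genes 408 had a Myc-only peak at an end (2.04%), and 680 had a Myc peak with BMAL1 there (3.39%). Of 21 core clock genes none had a Myc-only peak at a gene end (Wilson 95% interval up to 15.5%, which holds the share of all genes), and 9 had a Myc peak with BMAL1 there. Within 5 kb or inside the gene 1 core clock gene had a Myc-only peak: RORA, a nuclear receptor that activates BMAL1 transcription, with a score of 53.5. In that wider window 4.31% of all protein-coding genes had one. At CIART, which encodes CHRONO, both Myc peaks had BMAL1. No gene with a Myc-only peak at an end was in the lists of clock cofactors, MYC partners or translation factors and tRNA synthetases. The same held for the lists of immediate early, glucocorticoid-induced and osteoblast genes and of markers of other cell types. So 8 of 16 lists had no such gene. The upper Wilson bounds of these lists ran from 12.1 to 19.4%, all above 2.04%. A list does not hold its whole class: EIF2B3, of a translation factor but outside the 28 genes of that list, had Myc-only peaks. FKBP5 had a Myc-only peak of score 52.9 within 1 kb of a start, but not at a gene end.

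The lists with more than 1 such gene were the cytosolic ribosomal proteins and the cell cycle genes. Of 79 ribosomal protein genes 7 had a Myc-only peak at an end (8.86%, Wilson 95% interval 4.36 to 17.2%), beside 2.04% of all genes, and 4 had a Myc peak with BMAL1. After RPL37 and RPS12 came RPL15 with a score of 74.4, RPL38 with 70.8, RPS19 with 68.5, RPS25 with 59.4 and RPS13 with 55.6. The RPL15 peak was centred 16 bp before the start of NKIRAS1, and the RPS25 peak was shared with TRAPPC4. The RPS19 peak lay 188 bp from a BMAL1 peak and the RPL38 peak 25915 bp. Of 37 cell cycle genes 5 had one (13.5%, 5.91 to 28.0%) and 3 had a Myc peak with BMAL1. CDK2, the kinase of the G1 to S transition, had a score of 75.8, at 55973741 to 55973888 on chromosome 12. That peak lay nearer to RAB5B, an endosomal GTPase gene, 61 bp from its end and centred 135 bp before its start. E2F3, an activator of S phase genes, had 73.2, CDK1, the mitotic kinase, had 65.6, and MCM4 and MCM6, of the replicative helicase, had 61.9 and 59.4. The MCM4 peak was also at an end of PRKDC. The CDK1 peak centre lay 1 bp before the gene's start and 145793 bp from the nearest BMAL1 peak.

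In 6 lists 1 gene had a Myc-only peak. They were SRSF11 among 44 splicing factors (score 128), H2AC4, a histone H2A, among 62 histone genes (68.2), and WDR12, a ribosome assembly factor, among 33 ribosome biogenesis and MYC target genes (66.5). The others were GUSB, lysosomal beta-glucuronidase, among 29 lysosome and autophagy genes (58.3), CCT4, a chaperonin subunit, among 43 proteasome and chaperone genes (52.9), and NDUFB6, a subunit of complex I, among 37 complex I genes (50.6). The WDR12 peak was also at an end of CARF, and the NDUFB6 peak lay nearer to TOPORS and SMIM27. In the MYC target list 4 genes had a Myc peak with BMAL1 and in the splicing list 8. These shares are read beside 2.04% of all genes, and no list was tested. Genes outside the lists had such peaks too, among them SCNM1, a splicing protein (138), and ATP6V0C, of the lysosomal proton pump (97.9).

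Some genes held more than 1 Myc-only peak at their ends, 5 in all. RBL1, the p107 relative of the retinoblastoma protein, had 2, with scores of 87.0 and 73.2, at 37096177 to 37096384 and 37095918 to 37096099 on chromosome 20. EIF2B3, a subunit of the translation factor eIF2B, had 2 with scores of 63.3 and 51.4, and RTTN, a centriole protein, had 2 with 56.9 and 51.2. COPS7B, of the COP9 signalosome, and PDE6D, a carrier of lipid-modified proteins, shared 2 peaks with scores of 69.2 and 50.5. In each pair the peaks lay within 1 kb of each other, and whether a pair is 1 split site was not tested. Of the 331 Myc-only peaks at a gene end, 80 were at ends of 2 or more genes. Of the 408 genes, 71 also had a BMAL1 peak somewhere else within 1 kb of an end (17.4%, Wilson 95% interval 14.03 to 21.38%), beside 20.8% of all protein-coding genes with a BMAL1 gene-end peak in at least 1 list. ATP6V0C, of the lysosomal proton pump, is one: its Myc-only peak scored 97.9, it also had a Myc peak with BMAL1 of score 98.8, and 10 BMAL1 lists had a peak at an end. The choice of sites bars BMAL1 from the stretch under a Myc-only peak, so 17.4% and 20.8% are not like for like.

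Away from genes the Myc-only peaks held a group of very narrow peaks. Under 100 bp wide were 50 Myc-only peaks (4.53%, Wilson 95% interval 3.45 to 5.92%) and 9 peaks with BMAL1 (0.651%, 0.343 to 1.23%). Of the 50, 23 lay over 500 kb from any protein-coding gene on an assembled chromosome and 4 on another sequence, and none of the 9 did. The highest-scoring of the distant ones, with 99.7, was 65 bp wide, at 20029990 to 20030054 on chromosome 18, and lay 916852 bp from the nearest gene end, that of ROCK1. In all, 68 Myc-only peaks (6.16%) and 13 peaks with BMAL1 (0.940%) were that far from genes. Whether such stretches map uniquely was not tested. Among the widest Myc-only peaks were those at YTHDF2 (407 bp), CHCHD2 (385 bp) and the start shared by MITD1 and MRPL30 (375 bp), besides 1 of 706 bp on an unassembled sequence. One more, of 373 bp, lay 660348 bp from MMP16.

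By chromosome the Myc-only share of Myc peaks ran from 31.2% on chromosome 17 (54 of 173, Wilson 95% interval 24.8 to 38.5%) and 35.2% on chromosome 19 (45 of 128, 27.4 to 43.8%) to 60% on chromosome 4 (45 of 75, 48.7 to 70.3%) and 61.5% on chromosome 18 (40 of 65, 49.4 to 72.4%). Per Mb, chromosome 19 had the most Myc-only peaks, 0.768, and also the most protein-coding genes, 24.8. The Myc-only peaks fell in 445 windows of 5 Mb, with a median of 2 and at most 9 in a window. Their share of the Myc peaks differed among the fullest windows. It was 7 of 7 at 50000001 to 55000000 on chromosome 11 and 8 of 10 at 55000001 to 60000000 on chromosome 7. At 45000001 to 50000000 on chromosome 19 it was 9 of 37. The chromosome 11 window held peaks under 100 bp wide and over 500 kb from any protein-coding gene. Among them was the peak of 77 bp at 52031630 to 52031706. Whether the peaks of that window map uniquely was not tested, so its share is a count of calls alone. Of genes for small RNAs, 465 tRNA genes were overlapped by 5 Myc-only peaks and 5 peaks with BMAL1, and 1913 miRNA genes by 2 and 4. The 156 snRNA genes were overlapped by 1 and 0, and the 1199 snoRNA genes by 0 and 1.

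Most Myc-only peaks lay over 10 kb from the nearest BMAL1 peak, with no background distance measured beside them. The median gap to the nearest BMAL1 peak of any list was 35255 bp, with quartiles of 10731 and 97355 bp (1099 peaks, the other 5 being on sequences with no BMAL1 peak). Within 1 kb lay 85 (7.70%) and within 10 kb 266 (24.1%). Near the limit of the rule, 13 Myc-only peaks lay within 50 bp of a BMAL1 peak, and 2 Myc peaks with BMAL1 shared 10 bp or less. Just inside were the peaks at FGD6 and DPP9, which abutted a BMAL1 peak and scored 61.3 and 62.1. Just outside were those at GABPB2, with 5 bp shared and a score of 62.4, and BAIAP2, with 8 bp and 62.1.

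By library, Myc-only peaks within 10 kb of a BMAL1 peak were 8.51, 10.4, 2.81, 4.53, 12.7 and 8.97% at 0, 4, 8, 12, 16 and 20 h in U2OS-CHRONO. In U2OS they were 4.71, 6.25, 0.634, 2.36, 3.35 and 6.43%. U2OS-CHRONO was higher at each time, with a mean of 7.99% ± 3.69 against 3.96% ± 2.28 in U2OS (SD, n = 6 times). It also had the longer list at each time, from 2429 to 9391 peaks, against 337 to 6012 in U2OS. When the longer list of each time was cut to the length of the shorter by score, the means were 4.09% ± 2.92 in U2OS-CHRONO and 3.96% ± 2.28 in U2OS, and U2OS-CHRONO was higher at 4 and 20 h alone. Since nearness to BMAL1 peaks is close to what chose the sites, no test was made.

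**Figure D5:**
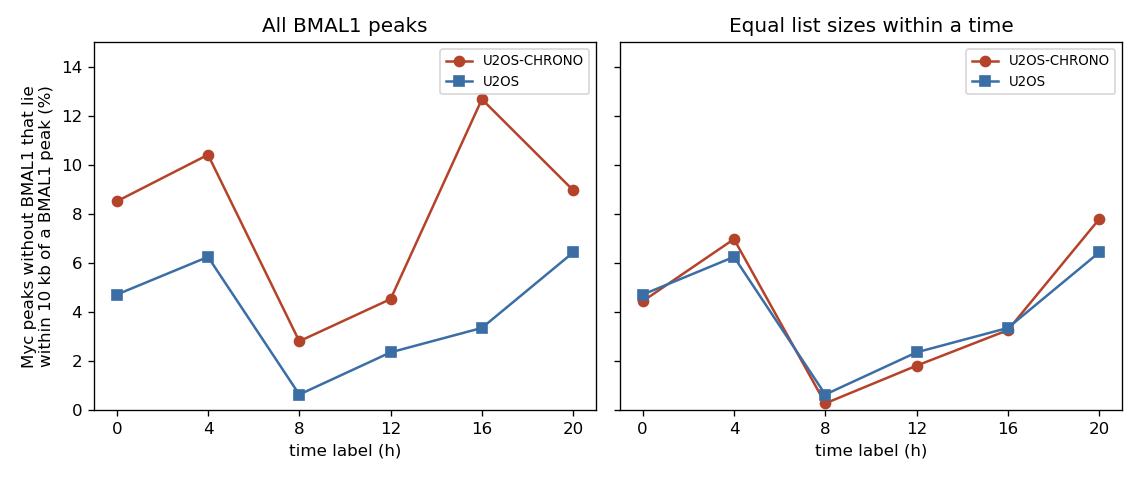
Share of Myc-only peaks (%) that lie within 10 kb of a BMAL1 peak, by time label (h), in U2OS-CHRONO (circles) and U2OS (squares), 1 library per point; left with all BMAL1 peaks, right with lists cut to equal length within each time. Left, U2OS-CHRONO lies above U2OS at each of 6 times, up to 12.7% at 16 h; right, the means are 4.09% in U2OS-CHRONO and 3.96% in U2OS.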

How the data were processed

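Each of the 13 files is the peak list of 1 library, with a score per peak, as deposited. MACS 1.4.2, HOMER 4.10.3, bedtools and the build hg38 are listed, with no role for each, per the submitters' processing notes. For aligner, read depth and control: not given in the sources used here. How the authors defined the score is not stated; the lowest was 50, and scores were compared within a list alone; BMAL1 scores served to cut lists to equal length and in an alternative. The 3 inputs were not analysed here.

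Peaks overlapped with at least 1 shared bp, and bedtools 2.31.1 gave the same 1104 peaks. Coordinates are 1-based. Genes (20037 protein-coding) and promoter windows came from RefSeq tables of GRCh38.p14, the assembly of hg38. A gene end is either end of a gene, within 1 kb. Shares have Wilson and differences Newcombe 95% intervals. Peaks of 1 library are not replicates, so nothing was tested. Sites, lists and motifs were chosen with earlier results of these data known. Genes named are those at peaks of score 100 or more, list genes, the widest peaks and genes with 2 or more peaks. The highest with and without an E-box, for sequences, and genes that share such a peak are named too. Chosen after their values were seen were ATP6V0C, RPS13, RORA, CIART, FKBP5, ROCK1 and the genes at the limit of the rule. Overlap and motif searches were tested on simulated data, with 200 of 200 planted overlaps and 120 of 120 planted motifs recovered. Alternatives were other score limits, overlaps, chromosomes, windows and distances, and each BMAL1 list left out. Python 3.11.15, NumPy 2.4.6, pandas 2.3.3, SciPy 1.17.1 and matplotlib 3.10.9 were used.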

Additional observations from a re-analysis of the deposited data

How the results depend on the processing

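Leaving out each BMAL1 list in turn gave 1104 to 1148 Myc-only peaks, a gene-end difference of -11.5 to -9.57 points, median scores of 54.3 to 54.4, median widths of 144.5 to 145 bp, an E-box share of 5.36 to 6.77% and 22.7 to 23.9% of peaks within 10 kb of a BMAL1 peak. At Myc scores of 100 or more there were 16 Myc-only peaks, a gene-end difference of 46.6 points, the opposite direction, a median score of 121, a median width of 244.5 bp, 18.8% of peaks within 10 kb and an E-box share of 0%, with 19 windows. Between Myc scores of 80 and 100 the gene-end difference was 16.6 points, again the opposite direction, and between 60 and 80 it was -7.10. At 60 or more there were 315 Myc-only peaks, a gene-end difference of -0.77 points and a median score of 67.0. With BMAL1 scores of 100 or more there were 1545 Myc-only peaks, the gene-end difference was -4.61 points, the E-box share was 10.1% and the share within 10 kb 9.13%. That share was 21.5% with centres within 500 bp as the rule, 17.8% where a BMAL1 peak within 1 kb counted as shared, 21.1% with U2OS-CHRONO lists alone and 17.03% at equal list sizes, and 7.70, 16.0 and 57.5% for distances of 1, 5 and 50 kb. The other 38 values kept the direction, and all but the counts stayed within the interval of a share or the quartiles of a median. The counts among them ran from 1019 to 1545, beside 1104 in the main setting, with no limit set for them. The highest, 1545, came with BMAL1 scores of 100 or more. With 1 window per gene, added after seeing the data, the E-box share was 4.72%. No paired analysis was possible because there is 1 Myc library and no result comes from a test. Read depth is unknown, and whether BMAL1 signal too weak to be called lies at Myc-only peaks was not tested.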

Other observations

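Words of 7 bases were counted in the promoter windows after the motif shares had been seen, so these words were chosen for their values. Of 1581 words held by 5% or more of the windows under Myc-only peaks, CGCCATA had the highest ratio to all windows, with 5.21% under Myc-only peaks, 1.83% under Myc peaks with BMAL1 and 1.08% of all. GAACTAC followed with 8.14, 6.52 and 2.29%, and ACCGGAA, which overlaps the ETS motif, with 15.6, 11.8 and 4.60%. Next by ratio came GGAACTA with 8.14, 5.50 and 2.41%, CGGATTC with 6.51, 2.24 and 2.02%, and GGACTAC with 7.82, 4.07 and 2.48%. TCAATCA came after these with 5.54, 1.43 and 1.78%. Words that overlap each other were counted apart, both strands were read as 1, and none was tested.

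Zinc finger genes named ZNF with a number, also chosen after the peaks at ZNF569, ZNF570, ZNF461 and ZNF567 were seen, had a Myc-only peak at an end in 18 of 517 cases (3.48%, Wilson 95% interval 2.21 to 5.44%), beside 2.04% of all protein-coding genes. A Myc peak with BMAL1 lay at 15 of them (2.90%).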
